A study of Lissachatina fulica and Mizuhopecten yessoensis with 12 samples.

Results

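Enzymes that build, branch and sulfate glycans were compared between atria and ventricles of the hearts of adult scallops (Mizuhopecten yessoensis, a bivalve) and adult giant African snails (Lissachatina fulica, a gastropod). Members were chosen by gene symbol from families of glycosyltransferases, carbohydrate sulfotransferases and glycan sulfatases. The choice gave 28 of 6081 listed rows, 21 of 4195 in scallop and 7 of 1886 in snail. Each chamber of each species had 3 wild-type heart libraries from poly-A selected bulk RNA sequencing. The labels name no treatment and do not say whether replicates came from separate animals, so the p-values rest on library-to-library spread, some of which may be technical. The authors' deposited tables list only genes already selected as differing between the chambers: every row has an unadjusted p under 0.05 and at least a 2-fold change. A listed gene had therefore already been found to differ, and a gene outside the tables was not analysed here.

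Glycans are sugar chains attached to proteins and lipids in the endoplasmic reticulum and the Golgi. N-glycans are built on a lipid carrier, transferred whole to a protein and then branched. O-glycans start with a single sugar such as N-acetylgalactosamine, fucose or mannose. Glycosaminoglycans such as heparan sulfate and chondroitin sulfate are long chains on proteoglycan cores, and their sulfate pattern decides which growth factors they bind. In vertebrate hearts such chains are part of the matrix of muscle, valves and vessels. The roles given below are those of the vertebrate genes whose symbols the rows carry, and the symbols are annotation names, not ortholog calls.

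Levels are normalized counts, which are gene reads divided by 1 size factor per library, and they are not divided by gene length, so genes are not ranked against each other. The scallop libraries held 10120508 to 21526834 reads on listed genes and the snail libraries 606309 to 1165104, so the snail values rest on far fewer reads. A positive log2 fold change means more in the atrium. It was fitted with limma to log2(normalized count + 1) over all rows with a mean of at least 10, and is given with its SE. A row passed with an adjusted p under 0.05 over all tested rows and a change of at least 2-fold. Because the tested rows had been selected from these same libraries, the adjusted p does not give an error rate over all genes. Of muscle markers, 4 were listed in scallop (Tm2, TNNT2, TNNI1, MYL6) and 3 in snail (Tm2, TNNI2, TNNT2). All were called higher in the ventricle, beside 45.6% of tested rows in scallop and 37.0% in snail, and none was at 0 in a chamber. The 4 scallop calls numbered 1 on leaving out an atrium, 2 without ventricle 1, and 0 under TMM, quantile or ribosomal rescaling, the last of which turned 3 of the 4 directions, while the 3 snail calls held in every setting tried.

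In scallop, 13 members were called toward the atrium and 5 toward the ventricle, and 2 tested members did not pass. These 18 calls of 20 tested members stand beside 87.6% of all tested scallop rows, 42.0% atrial and 45.6% ventricular, so the share of calls is near the background. The median log2 fold change was 1.37 over the tested members and −1.01 over all tested rows. Since every listed row had at least a 2-fold change, each median mainly follows the direction of the majority. The remaining member, a B3GALT1 row, lay below the mean of 10. The higher mean was atrial in 14 of 21 members and ventricular in 7, beside 48.1% and 51.9% of all listed scallop rows. The authors' deposited table gave an adjusted p under 0.05 to 14 of the 21, 9 atrial and 5 ventricular, beside 68.4% of listed rows (28.4% and 40.0%). The groups did not overlap in 18 of the 20 tested members, 13 with the atrium higher and 5 with the ventricle higher, beside 87.8% of tested rows (40.1% and 47.7%). The counts depended on single libraries: the atrial calls numbered 6 without atrium 1, 6 without atrium 2 and 8 without ventricle 2, and the ventricular calls numbered 2 without atrium 1, 2 or 3 or ventricle 2. Leaving out atrium 1 or atrium 2 also took the calls over all tested rows from 3440 to 1877 and 1808.

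**Figure D1:**
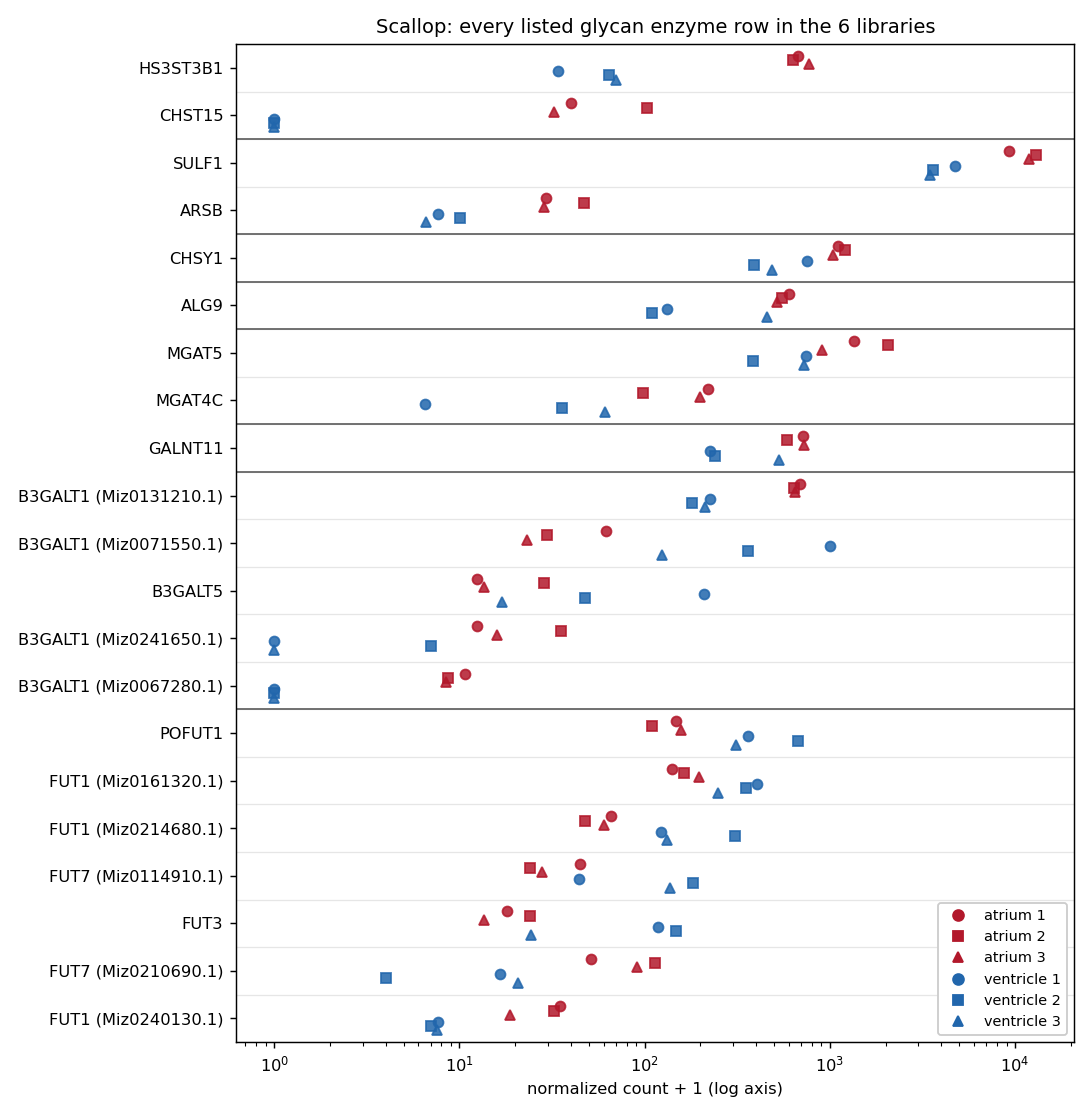
Normalized count + 1 (log axis) of all 21 scallop members in each of the 3 atrium (red) and 3 ventricle (blue) libraries, with symbol shape giving the replicate and lines separating enzyme roles. All sulfotransferase (2 rows), sulfatase (2), chondroitin chain (1), N-glycan assembly (1) and N-glycan branching (2) rows lie higher in the atria. Of the 7 fucosyltransferase rows 5 have the higher mean in the ventricles. Of all listed scallop rows 48.1% had the higher mean in the atrium and 51.9% in the ventricle.

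Both sulfotransferases were called higher in the atrium, beside 42.0% of all tested scallop rows. HS3ST3B1, which adds a late sulfate to heparan sulfate, stood at 671, 633 and 774 in atria 1, 2 and 3 and at 33.2, 63.2 and 69.4 in ventricles 1, 2 and 3. The groups did not overlap, and every ventricle lay under every atrium by a wide margin. Its means were 693 ± 72.8 and 55.3 ± 19.4 (SD, n = 3), a 12.5-fold difference, or 3.69 ± 0.46 on the log2 scale (limma adjusted p = 0.000394). It passed in each of the 6 fits that left out 1 library, with log2 fold changes from 3.36 to 3.88. CHST15, which adds a second sulfate to chondroitin sulfate, stood at 39.0, 102.2 and 31.2 in the atria, and no ventricle had a read. With 197 atrial reads against 0, and 3 reads over the ventricles as the floor, it was at least 47.7-fold higher in the atrium by that floor (95% lower limit from counting error 38.5, limma adjusted p = 0.00102). Rows with no read in any ventricle made up 4.58% of all listed scallop rows. Atrium 2 held the highest CHST15 level, and the row passed without it.

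Both sulfatases were called toward the atrium as well, again beside 42.0% of all tested rows. SULF1, a secreted enzyme that removes sulfate from heparan sulfate outside the cell, stood at 9319, 13019 and 11854 in the atria and at 4725, 3617 and 3481 in the ventricles. The chambers did not overlap, and the lowest atrium was far above the highest ventricle. This difference, 1.53 ± 0.30 on the log2 scale (limma adjusted p = 0.00356), rested on 41054 atrial and 10385 ventricular reads. ARSB, a lysosomal sulfatase of chondroitin and dermatan sulfate, was low, at 28.4, 45.8 and 27.5 in the atria and 6.64, 9.02 and 5.63 in the ventricles (2.09 ± 0.69, limma adjusted p = 0.0202). ARSB did not pass without atrium 1 or atrium 2 (limma adjusted p = 0.0537 and 0.0599) or under quantile normalization, where its log2 fold change was 0.12.

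Enzymes of the chondroitin chain, of N-glycans and of O-glycan initiation were also called toward the atrium, with log2 fold changes from 1.09 to 2.75. Calls toward the atrium made up 42.0% of all tested scallop rows. CHSY1, which polymerises the chondroitin chain, stood at 1110.1, 1200 and 1038 in the atria and at 756, 389 and 485 in the ventricles. The ventricles were more spread than the atria but did not reach them (1.09 ± 0.36, limma adjusted p = 0.0210). MGAT5, which adds a branch to N-glycans, stood at 1352, 2069 and 905 in the atria and at 738, 385 and 722 in the ventricles (1.21 ± 0.42, limma adjusted p = 0.0240). Its lowest atrium and highest ventricle were close, so the chambers were barely apart. MGAT4C, a member of another N-glycan branching family, stood at 219, 97.4 and 199 in the atria and at 5.53, 34.6 and 60.1 in the ventricles (2.75 ± 0.82, limma adjusted p = 0.0154). ALG9, a mannosyltransferase of the lipid-linked precursor, stood at 598, 547 and 519 in the atria and at 131, 108 and 455 in the ventricles (1.57 ± 0.54, limma adjusted p = 0.0237). GALNT11, which starts O-glycans with N-acetylgalactosamine, stood at 716, 585 and 719.5 in the atria and at 225, 239 and 528 in the ventricles (1.13 ± 0.43, limma adjusted p = 0.0304). In ALG9 and GALNT11 ventricle 3 lay near the atria, 87.2% and 77.6% of the way from the mean of ventricles 1 and 2 to the atrial mean on the log2 scale. The median over the 13 tested members with the higher atrial mean was 4.36%, and over the 1786 such rows among all those tested it was 27.0%. Both passed without ventricle 3, but neither ALG9 nor GALNT11 passed on leaving out another library (limma adjusted p from 0.0568 to 0.0731 and from 0.0666 to 0.0946), and ALG9 did not pass in edgeR (adjusted p = 0.0546). CHSY1 was lost on leaving out an atrium or ventricle 2 (limma adjusted p from 0.0547 to 0.0674), MGAT5 without atrium 1, atrium 2 or ventricle 2 (0.0661 to 0.101), and MGAT4C without atrium 1 (0.0536). In the authors' deposited table the adjusted p was 0.0943 for GALNT11 and 0.115 for ALG9, and between 0.0166 and 0.0399 for MGAT4C, CHSY1 and MGAT5.

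**Figure D2:**
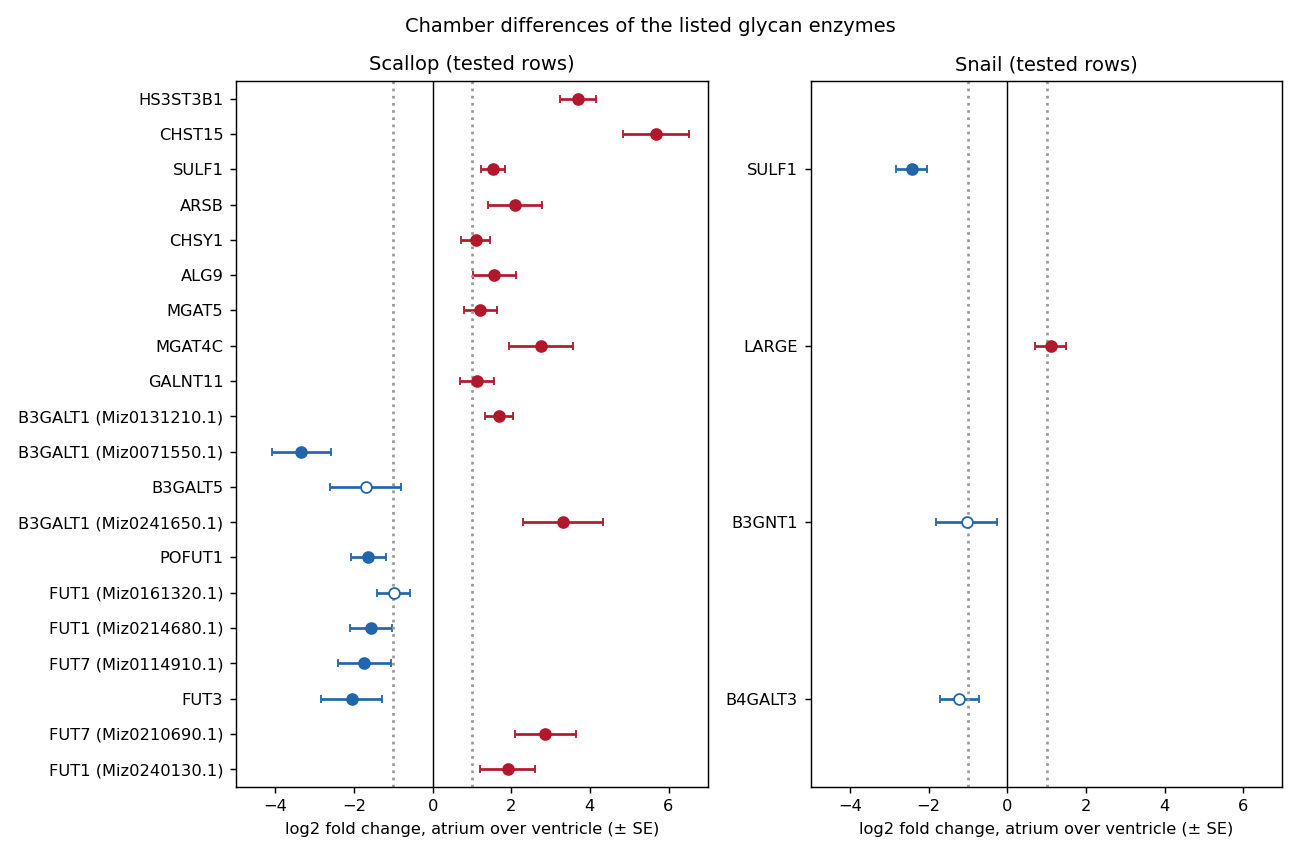
Log2 fold change, atrium over ventricle, with SE, for the 20 tested scallop members (left) and the 4 tested snail members (right), from limma fits on 3 libraries per chamber. Filled points passed the threshold, open points did not, and dotted lines mark a 2-fold change; SULF1 lies at 1.53 in scallop and at −2.43 in snail.

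Fucosyltransferases divided between the chambers. Of 7 scallop rows 4 were called toward the ventricle, beside 45.6% of tested rows, and 2 toward the atrium, beside 42.0%, and 1 did not pass. Of the 4 ventricular calls, those of FUT3, FUT1 and FUT7 were each lost in most fits that left out 1 library. POFUT1, which puts O-fucose on the epidermal growth factor repeats of proteins such as Notch, stood at 146, 108 and 156 in the atria and at 358, 674 and 309 in the ventricles. The chambers did not overlap (−1.63 ± 0.45, limma adjusted p = 0.0125), and the row passed in all 6 fits without 1 library (highest limma adjusted p = 0.0498, without atrium 2). FUT3, a Lewis-type fucosyltransferase, stood at 17.1, 22.9 and 12.6 in the atria and at 117, 146 and 23.5 in the ventricles (−2.06 ± 0.77, limma adjusted p = 0.0303). Ventricle 3 barely exceeded the highest atrium, and FUT3 passed without ventricle 3 but in no other fit that left out 1 library (limma adjusted p from 0.0621 to 0.102). A further TMM scaling also ended the FUT3 call (−1.60, limma adjusted p = 0.0703), and a rescaling on ribosomal protein genes ended those of POFUT1 and FUT3 (limma adjusted p = 0.613 and 0.377).

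Rows sharing a symbol went in opposite directions in each of the 3 symbols with several scallop rows. All listed scallop rows divided 48.1% to 51.9% between a higher atrial and a higher ventricular mean. Both directions are therefore common among any few listed rows. For FUT1, which adds the terminal fucose of the H antigen, row Miz0161320.1 stood at 139, 161 and 196 in the atria and at 402, 350.4 and 249 in the ventricles. It did not pass, at −0.99 ± 0.42 with a limma adjusted p of 0.0444 and a change just under 2-fold, although its chambers did not overlap. The FUT1 row Miz0214680.1 stood at 65.0, 46.8 and 59.5 in the atria and at 122, 305 and 131 in the ventricles (−1.57 ± 0.54, limma adjusted p = 0.0233). The FUT1 row Miz0240130.1 was called the other way, at 34.1, 31.5 and 17.8 in the atria and 6.64, 6.02 and 6.57 in the ventricles (1.91 ± 0.70, limma adjusted p = 0.0282), on 99 and 17 reads. Summed over the FUT1 rows the level was 250.4 ± 20.1 in atria and 526 ± 138 in ventricles, so the sum lay with the more abundant rows. For Miz0240130.1 the adjusted p in the authors' deposited table was 0.0695, its direction turned under quantile normalization (−0.13), and DESeq2 on recovered reads gave an adjusted p of 0.0556. The row Miz0214680.1 was lost on leaving out an atrium or ventricle 2 (limma adjusted p from 0.0602 to 0.0751), after the TMM scaling and after the ribosomal rescaling, and Miz0240130.1 without atrium 1, atrium 2 or ventricle 2 (0.0580 to 0.0902). Miz0161320.1 passed under quantile normalization (−1.16), in DESeq2 (−1.01) and without ventricle 3 (−1.19, limma adjusted p = 0.0123), and turned to 0.23 after the ribosomal rescaling.

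FUT7, a fucosyltransferase that makes selectin ligands in vertebrate leukocytes, had a row on each side. Row Miz0210690.1 stood at 50.3, 113 and 89.9 in the atria and at 15.5, 3.01 and 19.7 in the ventricles (2.87 ± 0.78, limma adjusted p = 0.0116), with no overlap. Row Miz0114910.1 stood at 43.9, 22.9 and 26.8 in the atria and at 43.1, 182 and 136 in the ventricles (−1.74 ± 0.67, limma adjusted p = 0.0331). Here the groups overlapped, since ventricle 1 lay just under atrium 1. Summed, the FUT7 rows reached 116 ± 20.7 in atria and 133 ± 66.1 in ventricles, a difference smaller than the ventricular spread. Row Miz0114910.1 passed without ventricle 1 and in no other fit that left out 1 library (limma adjusted p from 0.0579 to 0.106), and not after the TMM scaling (0.126) or the ribosomal rescaling (0.734). Row Miz0210690.1 did not pass under quantile normalization (1.25, limma adjusted p = 0.116).

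B3GALT1, which adds galactose to N-acetylglucosamine ends, had 4 scallop rows, 3 with the higher mean in the atrium. Row Miz0131210.1 stood at 687, 636 and 649 in the atria and at 225, 179 and 211 in the ventricles, tight in both chambers (1.68 ± 0.36, limma adjusted p = 0.00529). Row Miz0071550.1 stood at 60.9, 28.7 and 22.3 in the atria and at 996, 359 and 122.9 in the ventricles (−3.34 ± 0.75, limma adjusted p = 0.00620). Its ventricles differed widely among themselves, yet the lowest was above every atrium, and without ventricle 1 or ventricle 3 in turn the row still passed. In both rows the call held in every fit that left out 1 library and in all 9 other settings, with no direction turned. Row Miz0241650.1 was low, at 11.4, 34.4 and 14.9 in the atria and 0, 6.02 and 0 in the ventricles. Its 70 atrial reads against 4 corresponded to a 12.7-fold excess per unit of library size (95% interval 4.75 to 48.0, counting error only), with a limma adjusted p of 0.0170, and 0.0555 without atrium 2. Quantile normalization ended that call (0.81, limma adjusted p = 0.436), and the adjusted p in the authors' deposited table was 0.109. The row reached the mean of 10 only through its atria (20.2 against 2.01 in ventricles). Row Miz0067280.1, below the mean of 10 and not tested, had 30 atrial reads and none in ventricles, at least 7.27-fold higher in the atrium by the same floor (95% lower limit 5.56). For Miz0067280.1 the adjusted p in the authors' deposited table was 0.0739. Summed over the 4 rows, B3GALT1 stood at 723 ± 40.3 in atria and 699.5 ± 463 in ventricles, so the sum did not separate the chambers while single rows did. B3GALT5, a related galactosyltransferase, stood at 11.4, 27.7 and 12.6 in the atria and at 207, 46.6 and 16.0 in the ventricles. Its chambers overlapped and it did not pass (−1.71 ± 0.91, limma adjusted p = 0.0913), but it passed without ventricle 3 (−2.56, limma adjusted p = 0.0204), under quantile normalization, in edgeR and in DESeq2. Whether rows with the same symbol share reads was not tested.

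**Figure D3:**
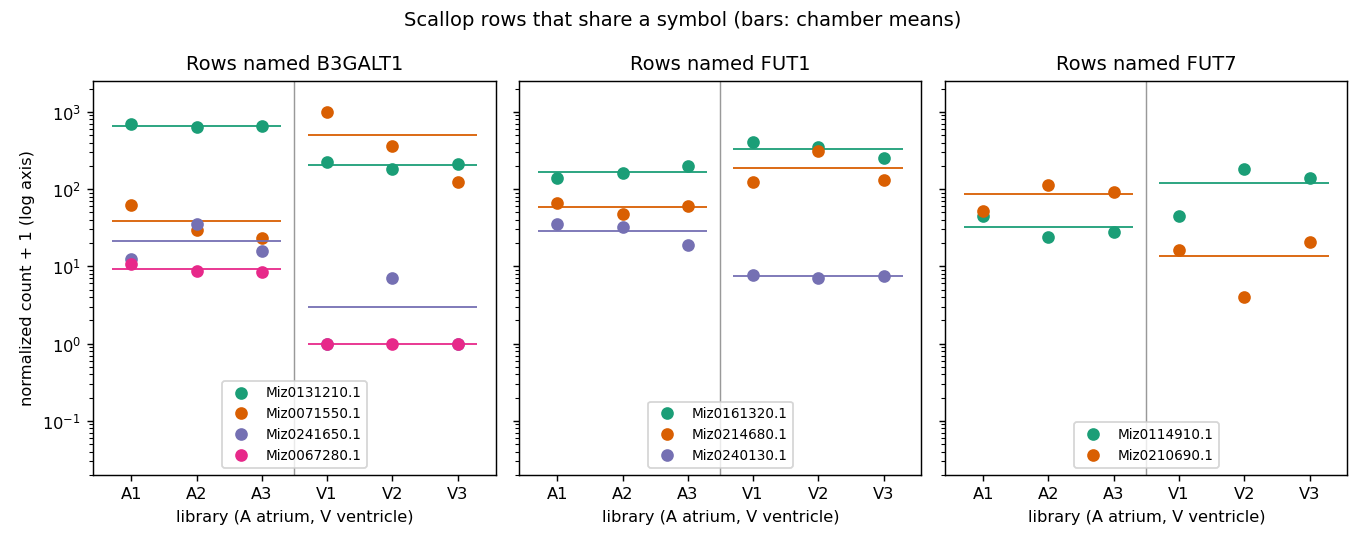
Normalized count + 1 (log axis) in each scallop library for the rows named B3GALT1 (4), FUT1 (3) and FUT7 (2), 1 colour per row identifier, with horizontal bars at chamber means. In each panel at least 1 row lies higher in the atria and at least 1 higher in the ventricles, beside 48.1% and 51.9% of listed scallop rows. The B3GALT1 row Miz0071550.1 spans 122.9 to 996 in the ventricles.

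The spread within a chamber was larger in ventricles. The median coefficient of variation of the tested scallop members was 29.9% over atria and 51.8% over ventricles, and 16 of 20 members were more variable in the ventricle; over all tested rows the medians were 21.9% and 43.4%. In the same libraries, marker lists of other cell types also differed between the chambers. Of all tested rows 42.0% were called toward the atrium and 45.6% toward the ventricle. Of the markers listed below, 11 neuronal and 11 ciliary rows were tested. Of 12 neuronal markers listed 10 were called higher in the atrium and none in the ventricle, with summed levels of 11094 to 13457 in atria and 3761 to 6761 in ventricles, and 1 row was at 0 in the ventricles. Of 12 ciliary markers 9 were called higher in the atrium (summed 3206 to 3341 against 1465 to 2080). The 10 neuronal calls numbered 6 without atrium 1 or atrium 3, and the 9 ciliary calls numbered 1 without atrium 1, 2 without atrium 2 or 3, 3 without ventricle 1, 6 in edgeR and 4 under quantile normalization. The 9 hemocyte and immune markers divided 5 to 3 in calls (35367 to 48203 against 22292 to 48864), the 3 ventricular ones numbering 0 under TMM or ribosomal rescaling and 0 to 2 on leaving out a library, and the 5 atrial ones 3 without atrium 2 or ventricle 2. The 1 mucin, MUC5B, was called higher in the atrium (49.7 to 89.9 against 9.38 to 18.0), but not under quantile normalization (0.84). The 4 muscle markers summed to 256116 to 266685 in atria and 476456 to 825319 in ventricles. The part of these cell types in the results was not tested, and in bulk tissue fewer cells of a type and less RNA per cell cannot be told apart.

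Genes that serve the same pathways were described from lists of symbols, each by up to 3 of the rows with the highest mean. In scallop all 6 listed proteoglycan and dystroglycan core rows were called higher in the atrium, beside 42.0% of tested rows (median log2 fold change 1.90, beside −1.01 over all tested rows). The row of HSPG2 with the higher level (Miz0052450.1), the heparan sulfate proteoglycan perlecan, stood at 36987, 42996 and 32041 in the atria and at 11977, 6084 and 10368 in the ventricles (2.02 ± 0.34, limma adjusted p = 0.00181). DAG1, the dystroglycan core (Miz0257390.1), stood at 12955 ± 1609.5 and 3817 ± 813, and GPC6, a membrane-anchored heparan sulfate proteoglycan, at 7405 ± 1391 and 3653 ± 583. GPC6 was lost without atrium 2 or ventricle 2 (limma adjusted p = 0.0607 and 0.0519). All 7 listed rows of other glycan enzymes were also called toward the atrium (median 1.89), with GLCE, which epimerises sugars of heparan sulfate, at 439 ± 67.8 against 68.4 ± 75.6 (limma adjusted p = 0.00534). UGCG, which makes glucosylceramide, stood at 509 ± 28.4 against 222 ± 139, and C1GALT1 (Miz0027480.1), which extends O-glycans, at 346 ± 120.1 against 105 ± 63.6. That count of 7 was 3 on leaving out an atrium or ventricle 1, and 5 in edgeR, under quantile normalization or without ventricle 2. UGCG was lost on leaving out an atrium, ventricle 1 or ventricle 2 (limma adjusted p from 0.0638 to 0.0714), and C1GALT1 without atrium 1 (0.0690).

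Of 6 oligosaccharyltransferase and dolichol rows 5 were called higher in the ventricle and none in the atrium (median −1.47), beside 45.6% of tested rows called toward the ventricle. RPN1, DDOST and OSTC, subunits of the complex that moves the glycan to the protein, stood at 4848 ± 1585, 4494 ± 1086 and 2155 ± 405 in atria and at 13686 ± 5967, 10776 ± 5269.5 and 7166 ± 3674 in ventricles (limma adjusted p = 0.0144, 0.0274 and 0.0114). In RPN1 ventricle 3 stood at 6821 against 17626 and 16612 in ventricles 1 and 2, just above atrium 3 at 6676. The 5 calls numbered 3 without atrium 1, 3 without atrium 2, 3 with TMM, 2 with quantile normalization and 0 with the ribosomal rescaling, which turned 2 of the 6. RPN1 was lost without atrium 1 or 2 (0.0518 and 0.0608) and DDOST without atrium 1, atrium 2, ventricle 1 or ventricle 2 (0.0780 to 0.0953). CALR, a lectin chaperone of glycoproteins, was called toward the ventricle (27932 ± 7271 against 78874 ± 45991, limma adjusted p = 0.0255), but not on leaving out an atrium, ventricle 1 or ventricle 2 (0.0563 to 0.0950) or under the 3 other scalings. CANX, its membrane-bound relative, did not pass (−0.88, limma adjusted p = 0.179), but did in DESeq2 (adjusted p = 0.0376) and without ventricle 3 (−1.70, limma adjusted p = 0.00211). From the breakdown list, MAN2B1, a lysosomal mannosidase, was called toward the ventricle (282 ± 113 against 1868 ± 1727). The donor transporter list took SLC35 family rows by symbol alone, and what each of them carries was not tested. These rows divided 1 to 1 in calls, with SLC35B4 toward the ventricle, SLC35F6 toward the atrium and SLC35E2B not passing. No row of the sugar donor list was in the scallop table. The calls of MAN2B1 and SLC35B4 ended after the ribosomal rescaling (limma adjusted p = 0.121 and 0.256). SLC35F6 was lost in edgeR (adjusted p = 0.0539) and on leaving out each library but ventricle 3 (limma adjusted p from 0.0619 to 0.112), and SLC35E2B passed without ventricle 3 (0.0323), under quantile normalization, in edgeR and in DESeq2.

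**Figure D4:**
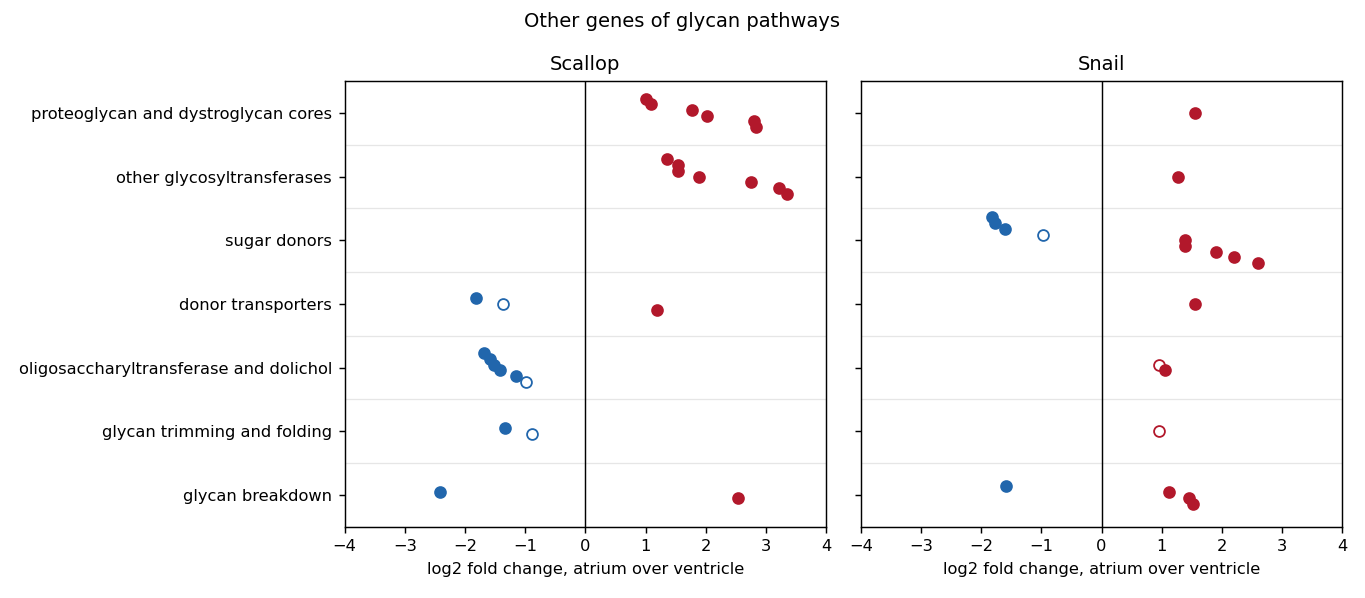
Log2 fold change, atrium over ventricle, for each tested row of 7 lists of other glycan pathway genes in scallop (left) and snail (right), 1 point per row, filled where it passed the threshold. In scallop the core proteins and other glycan enzymes lie above 0 and the oligosaccharyltransferase rows below 0 (2 of these 6 turned after the ribosomal rescaling), while in snail the sugar donor rows lie on both sides.

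In snail, 1 member was called toward the atrium and 1 toward the ventricle of 4 tested, beside 83.9% of tested snail rows in either direction, 46.9% atrial and 37.0% ventricular. The 4 tested members had a median log2 fold change of −1.12, and all tested rows 1.22. Since every listed row had at least a 2-fold change, such a median mainly follows the direction of the majority. The other 3 of the 7 members, all with the higher mean in the atrium, lay below a mean of 10 and were not tested. The higher mean was atrial in 4 of 7 members and ventricular in 3, beside 62.8% and 37.2% of listed snail rows. The authors' deposited table gave an adjusted p under 0.05 to 3 of the 7, GAL3ST1 and GALNT2 toward the atrium and SULF1 toward the ventricle, beside 67.4% of listed rows (38.9% and 28.6%). Among the 4 tested members 3 had chambers that did not overlap, 1 with the atrium higher and 2 with the ventricle higher, beside 86.2% of tested rows (46.6% and 39.6%).

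SULF1 was the ventricular call among the tested snail members. It stood at 8.76, 6.07 and 7.31 in the atria and at 35.6, 64.9 and 36.3 in the ventricles, from 31 and 98 reads. Every ventricle was well above every atrium, a 6.18-fold difference of means (−2.43 ± 0.40, limma adjusted p = 0.00281), and the row passed in all 6 fits without 1 library. It was also the only member symbol listed in both species, and its chamber difference ran the opposite way in scallop. The difference of the chamber differences, snail minus scallop, was −3.96 ± 0.44 on the log2 scale (limma interaction over 12 libraries and 328 shared symbols, adjusted p = 1.29e-05). The interaction called 77 of those symbols, 23.5%. Each shared symbol had already been listed for at least a 2-fold change in both species. Opposite directions therefore imply a large difference before any test, and this p-value is not independent of that selection. SULF1 passed in all 12 fits that left out 1 library, with differences from −4.11 to −3.69. The 2 tables were normalized separately, so levels are not compared between species, and the rows share a symbol but are not shown to be orthologs.

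LARGE, which builds the matrix-binding sugar chain of dystroglycan, was the atrial call in snail. It stood at 43.8, 50.05 and 39.9 in the atria and at 22.7, 11.96 and 29.6 in the ventricles, with no overlap (1.11 ± 0.40, limma adjusted p = 0.0347). The call was lost in every fit that left out 1 library except that without ventricle 3 (limma adjusted p from 0.0540 to 0.0862), with a pseudocount of 5 (0.96) and under quantile normalization (0.18). Its adjusted p in the authors' deposited table was 0.147. B4GALT3, a galactosyltransferase of N-glycans, stood at 4.38, 9.86 and 8.64 in the atria and at 23.8, 18.8 and 13.4 in the ventricles. It did not pass (−1.22 ± 0.49, limma adjusted p = 0.0506) though its chambers did not overlap, and it passed without atrium 2 (adjusted p = 0.0406), in edgeR (0.0437), under quantile normalization (0.00978) and without the filter on low rows (0.0489). B3GNT1, a glycosyltransferase by its symbol, stood at 19.7, 16.7 and 6.65 in the atria and at 38.9, 8.54 and 61.8 in the ventricles. The chambers overlapped, since ventricle 2 was low (−1.03 ± 0.78, limma adjusted p = 0.229), and without ventricle 2 the row passed (−1.83, limma adjusted p = 0.0333).

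The 3 untested snail members were all higher in the atrium, on few reads. GAL3ST1, which sulfates galactose on lipids to form sulfatide, stood at 16.1, 7.58 and 18.6 in the atria and at 2.16, 1.71 and 0 in the ventricles. Its 60 reads against 3 corresponded to a 10.8-fold excess per unit of library size (95% interval 3.51 to 53.6). GALNT2, which starts O-glycans, stood at 6.57, 3.03 and 9.97 in the atria with no ventricular read, and its 28 reads put it at least 5.02-fold higher by the floor of 3 reads (95% lower limit 3.82). Rows with no read in any ventricle made up 11.6% of all listed snail rows. HS3ST5, a heparan sulfate sulfotransferase of the family of HS3ST3B1, stood at 4.38, 0 and 19.9 in the atria and at 1.08, 0 and 0 in the ventricles. Its 36 reads against 1 corresponded to a 19.4-fold excess (95% interval 3.26 to 786), and 30 of the atrial reads came from atrium 3, with none in atrium 2. These intervals cover counting error alone, not the spread between libraries.

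**Figure D5:**
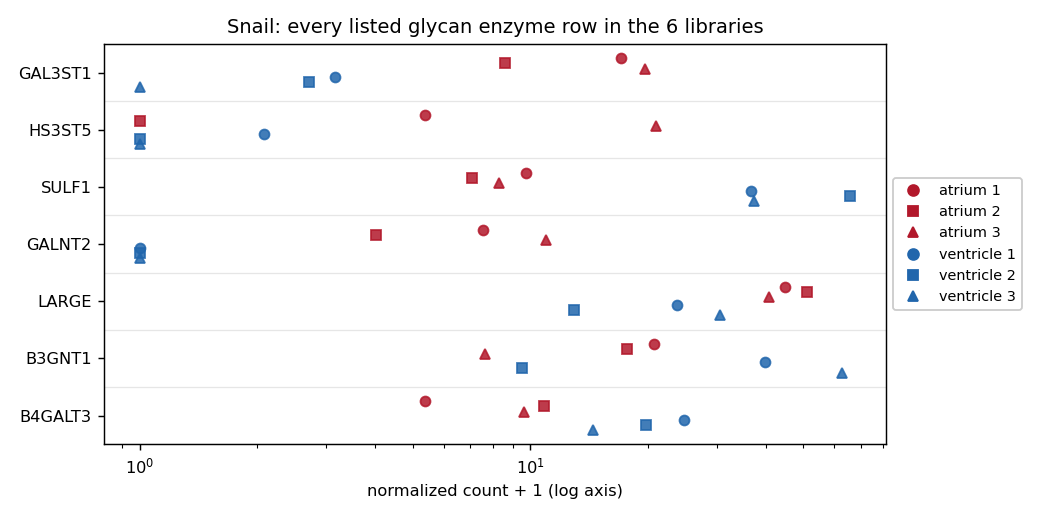
Normalized count + 1 (log axis) of all 7 snail members in each of the 3 atrium (red) and 3 ventricle (blue) libraries, with symbol shape giving the replicate. SULF1 lies at 35.6 to 64.9 in the ventricles and 6.07 to 8.76 in the atria, while the points of GALNT2 at 1 on the axis mark ventricles with no read.

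Marker lists moved with the snail chambers as well. Of all tested snail rows 46.9% were called toward the atrium and 37.0% toward the ventricle. Of the markers listed below, 10 hemocyte and immune rows, 5 neuronal rows and 1 ciliary row were tested. Muscle markers summed to 5476 to 8069 in atria and 31387 to 55705 in ventricles, and hemocyte and immune markers to 435 to 1562 in atria and 120 to 174 in ventricles, with 8 of 11 called higher in the atrium, none in the ventricle and 3 at 0 in all ventricles. Neuronal markers summed to 184 to 304 against 32.2 to 52.9 (4 of 8 called higher in the atrium, 1 at 0 in ventricles). Of 3 ciliary markers 1 was called higher in the ventricle and 2 were at 0 in the ventricles (16.6 to 24.3 against 17.1 to 21.5). The mucin MUC20 was at 29.9, 0.76 and 53.8 in atria 1, 2 and 3 and at 0 in the ventricles. MUC20 was called higher in the atrium, but not under quantile normalization. Among the fits that left out 1 library, MUC20 passed only in that without atrium 2. The 8 hemocyte and immune calls numbered 5 without atrium 1, atrium 3 or ventricle 3 and 3 under quantile normalization, the 4 neuronal calls 2 without atrium 1 or ventricle 3 and 1 under quantile normalization, and the 1 ciliary call was lost without atrium 1, atrium 3, ventricle 1 or ventricle 3. Their part in the results was not tested.

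Among other pathway genes of snail, the 9 sugar donor rows went both ways. Of these, 5 were called toward the atrium and 3 toward the ventricle, beside 46.9% and 37.0% of tested rows. PAPSS2, which makes the sulfate donor used by every sulfotransferase named above, stood at 79.6, 56.1 and 135.6 in the atria and at 27.0, 10.2 and 8.06 in the ventricles (2.59 ± 0.54, limma adjusted p = 0.00581). GALK1 (Afu019220), which phosphorylates galactose, was called toward the ventricle (mean 34.4 against 109.5, limma adjusted p = 0.00380), and MPI, which makes mannose phosphate, did not pass at −0.97 (limma adjusted p = 0.0213, a change under 2-fold). MPI passed, just past 2-fold, without atrium 3, ventricle 1 or ventricle 3, and also under quantile normalization, in edgeR and in DESeq2. The 5 atrial donor calls numbered 3 without atrium 1 or on leaving out a ventricle, 2 without atrium 3 and 1 under quantile normalization. GLCE was called toward the atrium in snail too (30.4 ± 7.90 against 12.5 ± 6.06, limma adjusted p = 0.0331), but not without atrium 1, atrium 2, ventricle 2 or ventricle 3 (0.0775 to 0.102) or under quantile normalization. GPC5, a heparan sulfate proteoglycan, stood at 189, 184 and 195 in the atria and at 75.6, 71.7 and 48.4 in the ventricles (1.55 ± 0.26, limma adjusted p = 0.00294). STT3A, the catalytic subunit of the oligosaccharyltransferase, was called toward the atrium (428 ± 109.9 against 205 ± 46.2, limma adjusted p = 0.0139). The STT3A call was lost without atrium 3 or ventricle 2 and under quantile normalization, and RPN2 did not pass (0.96). RPN2 passed without atrium 1 or 2, with TMM, with quantile normalization, in edgeR and in DESeq2. CALR did not pass (0.95, limma adjusted p = 0.0568), but did without atrium 2, with TMM, with quantile normalization and in DESeq2. In the breakdown list the MAN2B1 row Afu005177 was called toward the atrium, but not under quantile normalization, and the MAN2B1 row Afu015287 toward the ventricle. The SLC35 family row SLC35B1 was called toward the atrium, but not without atrium 1, atrium 3, ventricle 2 or ventricle 3 (0.0528 to 0.0989). Quantile normalization also ended the SLC35B1 call (0.56, limma adjusted p = 0.317).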

How the data were processed

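Chamber, species and replicate were taken from the sample titles. The submitters' processing notes list DESeq2 1.20.0, HISAT2 2.0.5, StringTie 1.3.3b and featureCounts 1.5.0 without saying what each did. Genome build, gene annotation and strandedness are not given in the sources used here; reads of overlapping genes or near-identical copies may be split. The library columns held a signal the authors deposited as gene counts divided by size factors; 100% of values were whole multiples of 1 step per library (tolerance 0.01 read). The authors' deposited log2 fold changes are ventricle over atrium, with a test score and p-values.

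Each table was fitted alone with limma 3.58.1 (R 4.3.3, trend) on log2(normalized count + 1), rows with a mean of at least 10, Benjamini-Hochberg adjustment over all tested rows. The design named edgeR only for raw counts; edgeR 4.0.16 and DESeq2 1.42.0 on recovered reads, other scalings, other filters and leaving out libraries were alternatives. Scripts were tested on simulated data. Intervals for reads are exact binomial (95%). Members and lists were chosen with earlier results of these data known. Named genes were all members, and per pathway list the 3 rows with the highest mean, except that some rows of the glycan breakdown list are not reported here. Marker starts that caught unrelated symbols (such as TPMT) were trimmed after the symbols were seen.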

Additional observations from a re-analysis of the deposited data

Results flagged for a closer look

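SULF1 drew a closer look because its chamber difference was not the same in the 2 species. It was higher in the atrium in scallop (1.53) and higher in the ventricle in snail (−2.43), and the limma interaction gave −3.96 on the log2 scale for snail minus scallop (adjusted p = 1.29e-05). Both rows had been listed for at least a 2-fold chamber change, so that p-value is not independent of the selection. All 3 libraries of the higher chamber lay above all 3 of the lower one in each species. In snail the result rests on 129 reads over 6 libraries, in scallop on 51439. No group had 4 or more libraries, so no library could be tested as an outlier.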

How the results depend on the processing

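Pseudocounts of 0.5 and 5, no filter on low rows, a further TMM scaling, quantile normalization, a ribosomal rescaling (scallop; no snail row matched), edgeR, DESeq2, a replicate block and leaving out each library were tried. Over all tested rows the median moved from −1.01 to −0.54 (TMM), −0.37 (quantile) and 0.21 (ribosomal) in scallop, and from 1.22 to 1.40 and 0.27 in snail. The 61 ribosomal protein rows used were themselves listed as different between the chambers, each with the higher mean in the ventricle. Scallop ventricular member calls went from 5 to 2 after the TMM scaling and 1 after the ribosomal rescaling. Scallop calls over all rows went from 3440 to 2130 under quantile normalization and 1800 after the ribosomal rescaling, where 1740 of 1800 were atrial. Of 1 snail atrial member call, none was left with a pseudocount of 5, under quantile normalization or with the replicate block (0 calls), and without the low filter there were 3. Snail ventricular member calls went from 1 to 2 without the low filter and in edgeR and to 3 under quantile normalization. Directions turned for the FUT1 rows Miz0161320.1 (0.23, ribosomal) and Miz0240130.1 (−0.13, quantile), DDOST (0.083, ribosomal) and scallop CANX (0.35, ribosomal), and for 3 of 4 scallop muscle markers, 2 hemocyte, 2 ciliary and 1 neuronal marker (ribosomal) and 1 snail hemocyte marker (quantile); the cause was not tested.

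Without 1 library, scallop atrial member calls ranged from 6 to 13, ventricular from 2 to 6, calls over all rows from 1808 to 3483, snail atrial member calls from 0 to 1, ventricular from 1 to 2 and calls over all rows from 961 to 1282. Same-numbered atria and ventricles did not deviate together (correlations from −0.165 to −0.116 in scallop and −0.0915 to 0.0586 in snail). With 3 libraries per chamber this cannot show whether same-numbered libraries came from the same animals. With the replicate block scallop had 3022 and snail 1170 calls over all rows, and 5 of 7 other glycan enzymes were called. CHSY1 (limma adjusted p = 0.0514), GALNT11 (0.0577), FUT1 Miz0240130.1 (0.0739), SLC35F6 (0.0579) and LARGE (0.0617) did not pass with it. The snail mucin MUC20, called higher in the atrium in the main fit, also lost its call, and no other named gene changed its call. Low snail read numbers limit what can be seen there.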
